A study of Mus musculus with 6 samples.

Results

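The receptors described here guide T cell leukemia cells through the body and let them attach. The set holds 9 genes, namely the chemokine receptors Cxcr4, Ccr7, Ccr9, Ccr4 and Cxcr3, the sphingosine 1-phosphate receptor S1pr1, the integrin chains Itga4 and Itgal, and the hyaluronan receptor Cd44. Its members are the probes that the platform annotation assigns to these 9 symbols, 22 of the 45281 probes on the array. Cd44 has 9 of them, Itga4 has 6 and each other gene has 1.

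RNA was measured on Illumina bead arrays in 3 samples labelled Klf4-deficient and 3 control samples labelled wild type. In both groups mice carried T cell acute lymphoblastic leukemia (T-ALL) driven by NOTCH1, all males, and GFP-positive cells bearing CD4 and CD8 were sorted from the marrow 4 weeks after transplantation. The deleted allele, the Cre driver, the strain and the age were not given in the sources used here. Nothing in the labels ties each sample to an animal of its own, so p-values reflect the spread between samples only, and part of it may be technical.

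Chemokine receptors and S1pr1 are G protein-coupled receptors that sense gradients of chemokines or of sphingosine 1-phosphate and turn them into directed movement. They also switch integrins into a state that binds their ligands on vessel walls and stroma. Cxcr4 is known for holding blood cells and T-ALL cells near marrow stroma that makes its ligand Cxcl12, Ccr7 for entry of T-ALL cells into the central nervous system, and S1pr1 for the exit of T cells from thymus and lymph nodes. Klf4 is a zinc finger transcription factor whose family binds GC-rich and CACCC-type DNA elements.

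The label Klf4-deficient was not borne out by the only Klf4 probe that rose above background. The brightest of 3 Klf4 probes had signals of 80.6, 46 and 85.4 in Klf4-deficient arrays 1, 2 and 3, against 44, 18.4 and 24.6 in control arrays 1, 2 and 3. Its signals were thus higher in the arrays labelled Klf4-deficient, and it was above background on 3 of 3 of these and 2 of 3 controls. Both other Klf4 probes were under background on every array. Their means were lower in the Klf4-deficient arrays, -8.0 against 3.2 and -7.8 against -0.7 in the controls. Where the probes lie relative to the deleted part is not known, so this may check nothing, and every direction given here rests on the labels. The mean signal over all probes was 359 to 432 in the Klf4-deficient arrays and 417 to 445 in the controls. On the first principal component, with 48.9% of the variance of probes above background, Klf4-deficient array 3 lay at 39.6 and the other arrays between -14.7 and 2.86. Of 4 markers of the sorted cells, 3 gave strong signal. Cd8b1 averaged a signal of 26203 ± 380 in Klf4-deficient and 29003 ± 457 in control arrays (SD, n = 3 each). Cd3e averaged 12732 ± 1017 in Klf4-deficient and 14616 ± 945 in control arrays, and Cd4 averaged 1222 ± 182 in Klf4-deficient and 1296 ± 225 in control arrays. In these deposited signals the groups of Cd8b1 and Cd3e were apart. After normalization between arrays the groups of all 3 markers overlapped. The log2 differences, Klf4-deficient minus control, were then -0.05 ± 0.09 for Cd8b1, -0.09 ± 0.06 for Cd3e and 0.04 ± 0.21 for Cd4 (SE). The brightest probe of Cd8a had only 18.5, 34 and 12 in Klf4-deficient arrays 1, 2 and 3, against 32.7, 29.5 and 30.1 in control arrays 1, 2 and 3, and was above background on 1 of 3 Klf4-deficient and 3 of 3 control arrays.

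A probe counted as above background when its deposited signal exceeded the background SD of its array 3-fold, a limit between 21.8 and 23.7. By this limit 5 of the 22 probes, from 4 genes, were above background on all 6 arrays. They belonged to Cxcr4, Itgal, Itga4 (1 of 6 probes) and Cd44 (2 of 9 probes). Another 3 probes passed on some arrays and 14 on none. Ccr7, Ccr9, Ccr4 and S1pr1 were not above background on any array.

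**Figure D1:**
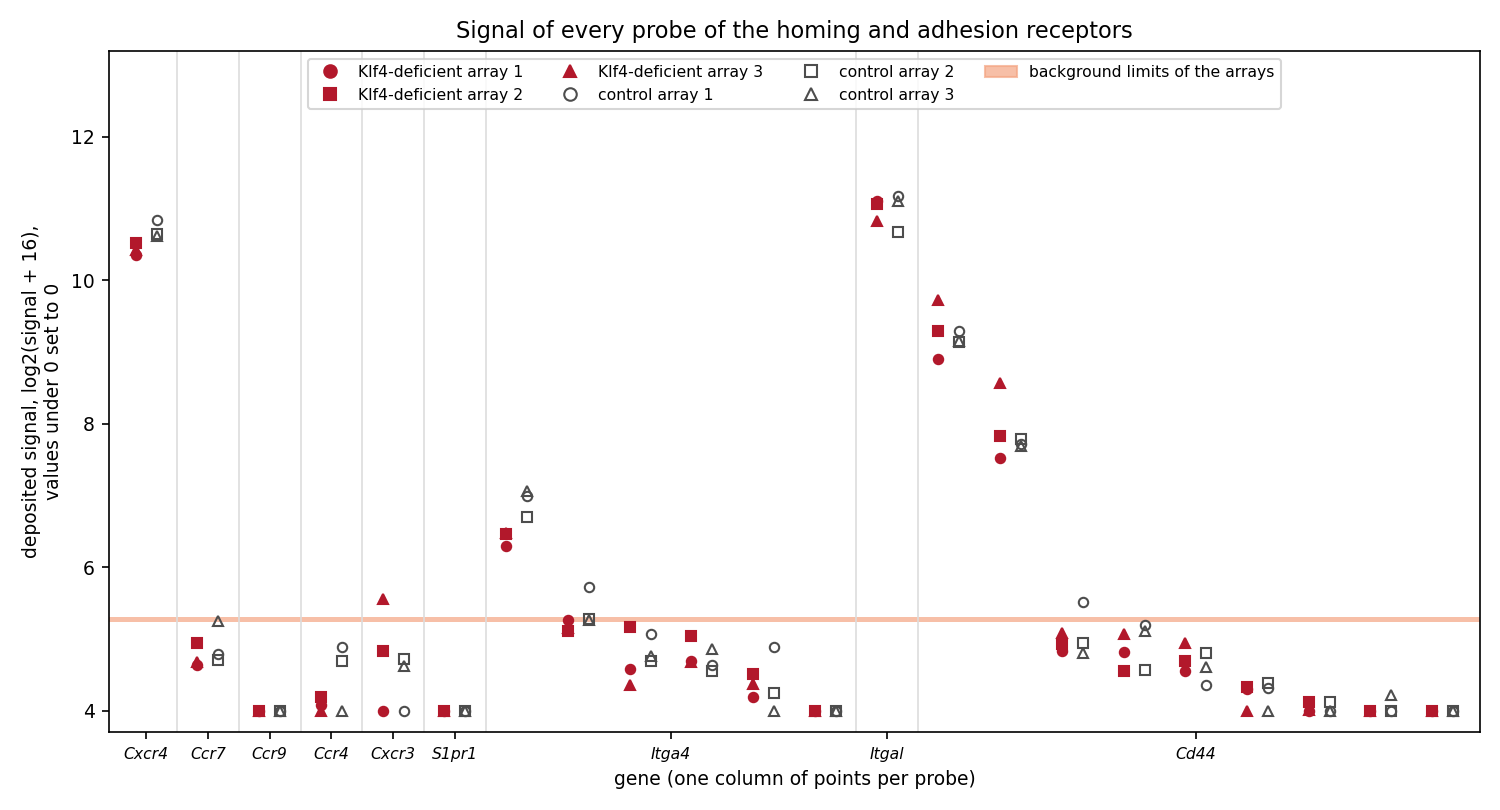
Deposited signal of each of the 22 probes on each of the 6 arrays, as log2(signal + 16) with values under 0 set to 0, so that 4 is the floor. Filled red marks are Klf4-deficient arrays, open grey marks are controls, and the band is the range of the 6 background limits. The probes of Cxcr4 and Itgal, 1 Itga4 probe and 2 Cd44 probes lie above the band on every array.

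The stretch just upstream of the start of a gene is shown for the measured receptors whose promoter was in the RefSeq table of the mouse build GRCm38.p6, since the study removes a factor of the CACCC-binding family. Capitals mark CACCC and its reverse complement GGGTG. The Cxcr4 stretch is chr1:128592300-128592549 on the minus strand, that of Itga4 is chr2:79255176-79255425 on the plus strand, and that of Cd44 is chr2:102901666-102901915 on the minus strand. Each runs 5′ to 3′ along the gene and ends just before its annotated start.
Cxcr4: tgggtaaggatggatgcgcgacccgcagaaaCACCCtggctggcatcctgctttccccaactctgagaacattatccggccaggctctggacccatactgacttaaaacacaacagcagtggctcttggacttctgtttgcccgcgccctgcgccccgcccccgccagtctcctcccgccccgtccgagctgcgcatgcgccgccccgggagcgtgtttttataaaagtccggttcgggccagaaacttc
Itga4: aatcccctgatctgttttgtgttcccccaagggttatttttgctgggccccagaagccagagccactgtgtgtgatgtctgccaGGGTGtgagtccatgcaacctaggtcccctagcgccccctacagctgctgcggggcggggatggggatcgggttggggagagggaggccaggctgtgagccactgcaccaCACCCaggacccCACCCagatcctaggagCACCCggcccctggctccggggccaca
Cd44: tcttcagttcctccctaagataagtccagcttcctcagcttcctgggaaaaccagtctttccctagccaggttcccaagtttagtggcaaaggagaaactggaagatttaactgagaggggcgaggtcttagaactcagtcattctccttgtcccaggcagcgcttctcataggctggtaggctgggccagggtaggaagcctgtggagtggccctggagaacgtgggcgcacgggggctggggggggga

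The 250 bases of Itga4 held CACCC or GGGTG at 4 places, 166, 56, 44 and 27 bases upstream of the start. Those of Cxcr4 held it at 1 place, 219 bases upstream, and those of Cd44 at none. Among receptors not shown, Ccr9 and Ccr4 held it at 1 place each and Cxcr3 at none. Searched on both strands, the motif occurs at 1 place or more in 52.0% of the 32851 promoters of the table at this length. How many of them hold it at 4 places was not counted, so the number in Itga4 has no background here. The GC box CCGCCC or GGGCGG, which other factors of the family are known to bind, occurred at 3 places in Cxcr4, 1 in Itga4 and none in Cd44, and in 32.7% of all these promoters. It overlaps no CACCC match in these stretches. Matches of this kind are a description of letters and not of binding.

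Among the receptors above background, the Itga4 probe had separated groups, Cxcr4 and Itgal had overlapping ones, and Cd44 was high on a single Klf4-deficient array. No member passed the test over all probes. Signals were floored at 0, 16 was added, and log2 values were quantile normalized and tested with limma over all 45281 probes at an adjusted p of 0.05. In that test 0 of the 22 member probes were called, against 2 of all 45281 probes (0.00442%). At an unadjusted p under 0.05, 1 of the 22 passed, where 6.04% of all probes did, so neither count stands apart from the background. Over the 22 member probes the median log2 difference, Klf4-deficient minus control, was -0.01, but 14 of them were above background on no array. Over the 5 member probes above background on all 6 arrays it was 0.12, and over all 15173 such probes it was -0.02. The 5 values were -0.43 (Itga4), -0.16 (Cxcr4), 0.12 (Itgal), and 0.21 and 0.34 (both Cd44). Cd44 thus enters that median with 2 probes of the same gene, so the median shows no shift of the 4 genes as a set.

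**Figure D2:**
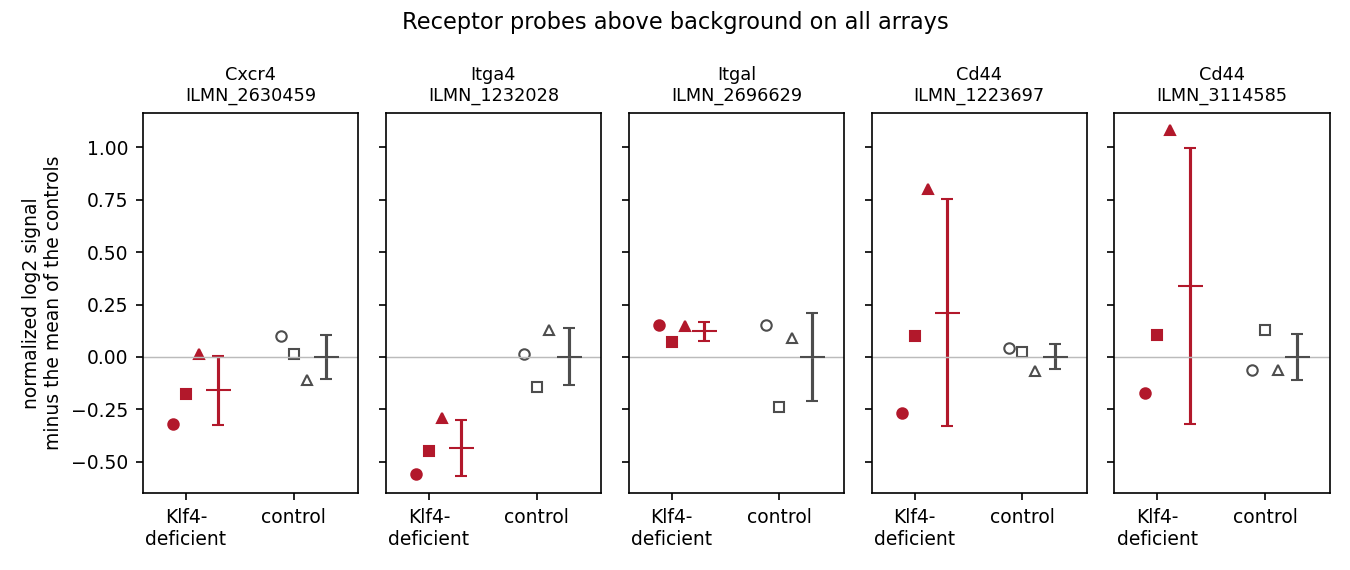
Normalized log2 signal of the 5 probes above background on all 6 arrays, minus the mean of the 3 controls. Circles, squares and triangles are arrays 1, 2 and 3 of each group, and the bar beside them is the group mean with its SD. The groups are apart for Itga4, and the triangle of the Klf4-deficient group is highest for both Cd44 probes.

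Cxcr4, the receptor for Cxcl12, gave strong signal on every array. Its probe had signals of 1297, 1449 and 1356 in Klf4-deficient arrays 1, 2 and 3, against 1811, 1589 and 1561 in control arrays 1, 2 and 3. On the deposited scale every Klf4-deficient array lay below every control. The mean was 1367 ± 77 in Klf4-deficient and 1654 ± 137 in control arrays (SD, n = 3 each). After normalization the log2 values were 10.33, 10.47 and 10.66 in the Klf4-deficient arrays and 10.75, 10.66 and 10.54 in the controls. The groups then overlapped, because Klf4-deficient array 3, the array with the lowest mean signal over all probes, moved up to the level of control array 2. The log2 difference was -0.16 ± 0.11 (SE, 95% interval -0.44 to 0.12, adjusted p = 0.824 from limma). With no normalization between arrays it was -0.27 (adjusted p = 0.810), where the median of the probes above background was itself -0.11. In the deposited signals 12.7% of those probes lay below all controls and 2.44% above, against 10% and 6.78% after normalization. Without Klf4-deficient array 1 the difference of Cxcr4 was -0.08 (adjusted p = 0.875).

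Itga4 encodes the alpha4 chain, which pairs with beta1 as VLA-4 to bind Vcam1 and fibronectin, and with beta7 to bind Madcam1. The Itga4 probe ILMN_1232028, assigned through the cDNA AK041096, had signals of 63, 72.2 and 73.2 in Klf4-deficient arrays 1, 2 and 3. In control arrays 1, 2 and 3 it had 111, 88.1 and 118. The groups did not overlap, before or after normalization. The mean was 69.5 ± 5.6 in Klf4-deficient and 106 ± 15.6 in control arrays (SD, n = 3 each). The log2 difference of -0.43 ± 0.11 (SE) had a 95% interval of -0.71 to -0.15 and an unadjusted p of 0.0112 in limma. It did not pass over all probes (adjusted p = 0.639). Of the 15173 probes above background on all 6 arrays, 10% lay below all controls on the normalized scale, as the Itga4 probe did. Of 18 alternatives, in processing or with 1 array left out, none changed its sign or brought it past the threshold. The difference ran from -0.51 to -0.32. As the groups were apart, leaving out 1 array could hardly turn the sign.

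The other 5 Itga4 probes did not measure a level well above background. ILMN_1245348 had 22.4, 18.6 and 19.5 in Klf4-deficient arrays 1, 2 and 3, against 37.1, 22.8 and 22.3 in control arrays 1, 2 and 3. It was above background on 1 of 3 Klf4-deficient and 2 of 3 control arrays, and its deposited signals overlapped by a narrow margin. After normalization Klf4-deficient array 1 lay at 5.30, above control arrays 2 and 3 at 5.27 and 5.21. The log2 difference of this probe was -0.18 ± 0.18 (SE). The remaining 4 were under the limit on every array, with signals up to 19.9. ILMN_1245348, ILMN_1251003 and ILMN_2635342 were assigned through a RefSeq mRNA of Itga4, and the bright probe was not. Which part of the Itga4 transcript each probe reads is not given in the sources used here, so the value of the bright probe stands alone.

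Itgal, the alpha chain of LFA-1, which binds Icam1 on endothelium and stroma, did not separate the groups. It had signals of 2189, 2122 and 1794 in Klf4-deficient arrays 1, 2 and 3, against 2290, 1618 and 2192 in control arrays 1, 2 and 3. Both the highest and the lowest array were controls. The mean was 2035 ± 211 in Klf4-deficient and 2033 ± 363 in control arrays (SD, n = 3 each). The log2 difference was 0.12 ± 0.12 (SE, adjusted p = 0.825 from limma), with a 95% interval of -0.18 to 0.42 that includes differences in both directions. It was 0.002 without control array 2 and 0.20 without control array 1.

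Cd44, the receptor for hyaluronan and a marker of early thymic progenitors and activated T cells, was read by 2 probes above background. ILMN_1223697 had signals of 464, 611 and 828 in Klf4-deficient arrays 1, 2 and 3, against 614, 550 and 555 in control arrays 1, 2 and 3. ILMN_3114585 had 168, 212 and 363 in the same Klf4-deficient arrays, against 195, 204 and 191 in the controls. On both probes Klf4-deficient array 3 was the highest of the 6 arrays and Klf4-deficient array 1 the lowest. The log2 differences were 0.21 ± 0.29 for the brighter probe and 0.34 ± 0.36 for the other (SE, adjusted p = 0.936 and 0.858 from limma). Their 95% intervals ran from -0.55 to 0.97 and from -0.59 to 1.27. Without Klf4-deficient array 3 they were -0.08 and -0.03, with the opposite sign, and without Klf4-deficient array 1 they were 0.45 and 0.59. Across the 6 arrays the pair of probes correlated with Pearson r = 0.98 and Spearman rho = 0.83, a description of arrays that share RNA.

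The 7 other Cd44 probes lay at or under background, and 1 of them passed the limit on a single array, control array 1, at 29.9. Whether the Cd44 probes read different splice forms is not given in the sources used here.

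Klf4-deficient array 3, on which Cd44 was highest, also had the highest medians of the monocyte, neutrophil and erythroid marker lists. The 25 measured monocyte, macrophage and dendritic markers had a median log2 difference from the control mean of 0.13, 0.56 and 1.32 in Klf4-deficient arrays 1, 2 and 3, against at most 0.00048 in the controls. Their summed signal was 18039 to 38652 in the Klf4-deficient arrays and 15299 to 20353 in the controls. On the normalized scale 9 of the 25 did not overlap and were higher in the Klf4-deficient arrays, where this held for 5.45% of all genes. Cd163, Siglec1, Cybb and Itgax were above background on no array. The 18 neutrophil markers had medians of -0.19, -0.10 and 1.42 in the same Klf4-deficient arrays, while those of the controls ran from -0.27 to 0.37. Their summed signal was 79343 to 155977 in the Klf4-deficient arrays and 78064 to 108525 in the controls, 0 of the 18 had separate groups, and Mmp8 was above background on no array. The 16 erythroid markers had medians of 0.16, 1.11 and 1.92 in the Klf4-deficient arrays, against -0.18 to 0.17 in the controls. Their summed signal was 76819 to 95851 in the Klf4-deficient arrays and 64338 to 76587 in the controls, 5 of the 16 were higher without overlap, and Epb42 and Rhd were above background on no array. The 11 megakaryocyte markers had medians of 0, 0.25 and 0 in the Klf4-deficient arrays, against -0.03 to 0.05 in the controls, and the 14 stromal and endothelial markers had -0.05, -0.03 and 0.003 in the Klf4-deficient arrays, against -0.05 to 0.04 in the controls. The 13 B lineage markers had -0.08, -0.08 and 0.32 in the Klf4-deficient arrays, against -0.13 to 0.16 in the controls. The part of such cells in the Cd44 values was not tested. Of the monocyte markers, Vcam1, Ccr2, Itgam and Itgax also belong to the homing and adhesion lists.

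**Figure D3:**
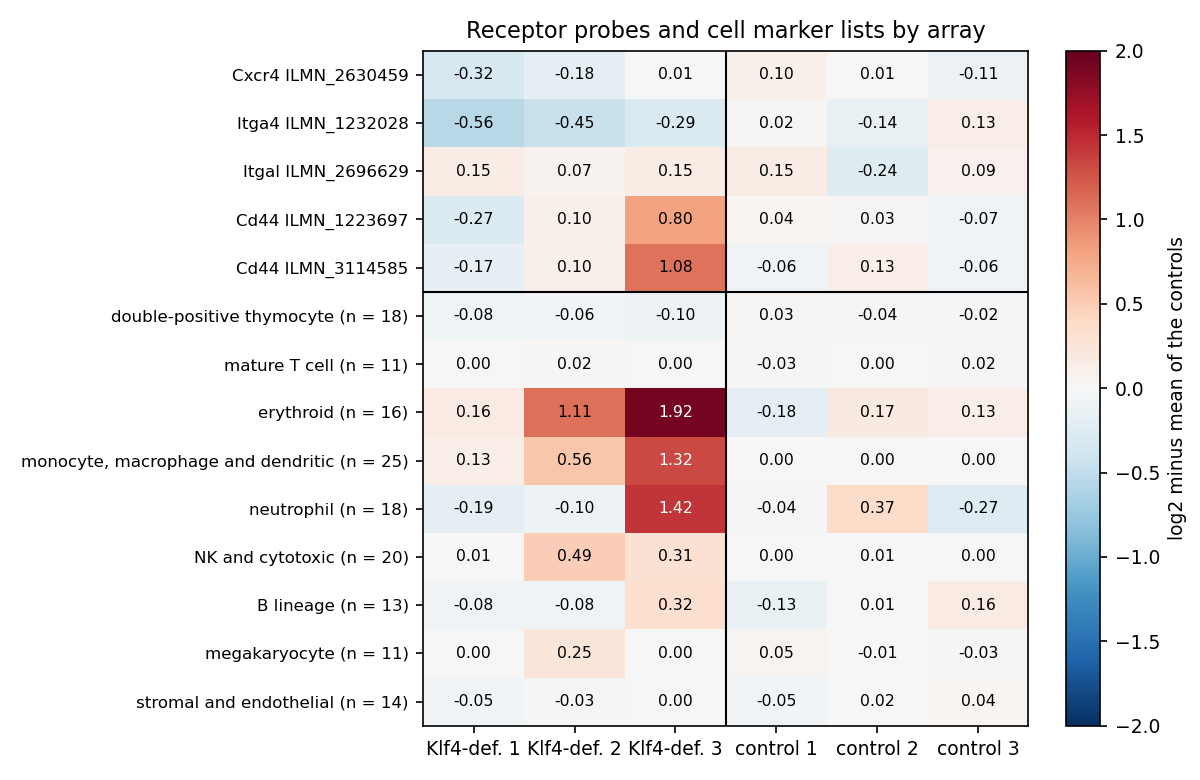
Normalized log2 signal minus the mean of the controls, by array, for the 5 receptor probes above background (upper rows) and as the median over each list of cell markers (lower rows). Columns are the 3 Klf4-deficient and the 3 control arrays, and red is higher. In Klf4-deficient array 3 both Cd44 probes stand at 0.80 and 1.08, and the erythroid, monocyte and neutrophil lists at 1.92, 1.32 and 1.42.

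The 18 measured genes of double-positive thymocytes, which mark the sorted cells themselves, had medians of -0.08, -0.06 and -0.10 in Klf4-deficient arrays 1, 2 and 3, while those of the controls ran from -0.04 to 0.03. On the normalized scale 4 of the 18 were lower in the Klf4-deficient arrays without overlap and 0 were higher. Of all probes above background on all 6 arrays, 10% were lower in this way. In such bulk samples fewer cells of a type and less RNA per cell cannot be told apart. For the 2 receptors above background with negative differences, Itga4 and Cxcr4, Klf4-deficient array 1 was the lowest of the 6 arrays, and on that array the monocyte, neutrophil and erythroid lists lay at 0.13, -0.19 and 0.16. Without Klf4-deficient array 3 the Itga4 difference was -0.51 and the Cxcr4 difference -0.25. The part of other cells in these differences was not tested.

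Cxcr3, which binds the interferon-induced chemokines Cxcl9 and Cxcl10 and marks effector T and NK cells, was above background on 1 array. Its signals were -3.1, 12.4 and 31 in Klf4-deficient arrays 1, 2 and 3, against -2.4, 10.5 and 8.7 in control arrays 1, 2 and 3. Klf4-deficient array 3 alone passed the limit. The 20 NK and cytotoxic markers had medians of 0.01, 0.49 and 0.31 in the Klf4-deficient arrays, while those of the controls ran from -0.004 to 0.008, with summed signals of 2793 to 3855 in the Klf4-deficient arrays and 2231 to 3261 in the controls. On the normalized scale 4 of the 20 were higher in the Klf4-deficient arrays without overlap and 0 were lower. Of all genes 5.45% were higher in this way. On no array were 9 of the 20 above background, among them Ncr1, Klrk1, Eomes and Tbx21. The part of such cells in the Cxcr3 value was not tested.

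For the remaining 4 receptors, all under background, signals are given as deposited. Ccr9, the receptor for the thymic and gut chemokine Ccl25, had signals of -7.3, -8 and -0.3 in Klf4-deficient arrays 1, 2 and 3, and -1.5, -5 and -10.9 in control arrays 1, 2 and 3. S1pr1 had -8.5, -3.9 and -8.1 in the Klf4-deficient arrays and -9.1, -5.1 and -13.3 in the controls. Neither probe gave a positive value on any array, so no fold can be given in either direction.

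Ccr4, the receptor for Ccl17 and Ccl22, had signals of 0.9, 2.2 and -1.4 in Klf4-deficient arrays 1, 2 and 3, against 13.7, 9.8 and -2.6 in control arrays 1, 2 and 3. Ccr7, the receptor for Ccl19 and Ccl21, had 8.9, 14.9 and 9.7 in the Klf4-deficient arrays and 11.8, 10.2 and 22 in the controls, its highest value being the closest to the limit of that array, 23.2. Groups overlapped for both. Being under the limit is not a measure of absence on this platform. The Cd8a probe, in cells sorted for CD8, had signals of only 12 to 34. It was above the limit on 1 of 3 Klf4-deficient and 3 of 3 control arrays.

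The partners that Itgal and Itga4 need at the cell surface did not pass either. These chains, together with Cxcl12 and Klf2, were singled out for their role after values had been seen. Itgb2, the beta chain of LFA-1, had a mean signal of 42.2 ± 4.8 in Klf4-deficient and 53.2 ± 5.4 in control arrays (SD, n = 3 each), a log2 difference of -0.19 ± 0.12 (SE, adjusted p = 0.824 from limma). Itgb1 averaged 57 ± 18.1 in Klf4-deficient and 59.4 ± 7.7 in control arrays and differed by -0.01 ± 0.21. Itgb7 averaged 1898 ± 435 in Klf4-deficient and 1911 ± 413 in control arrays and differed by 0.09 ± 0.20. The signs of Itgb1 and Itgb7 turned under other settings, so neither has a direction.

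Beyond the receptors, 120 of 125 listed homing and adhesion genes were measured, each by its brightest probe. In limma 0 of the 120 were called higher and 0 lower at the adjusted threshold, against 0.00525% of the 19057 genes. At an unadjusted p under 0.05, 5 were higher, where 3.46% of genes were, and 5 were lower, where 4.13% were. The median log2 difference of the 120 was 0.05. The same shares over all genes apply to each list below. From each list the 3 genes with the smallest unadjusted p are described, among those above background on at least 3 arrays. Separate groups among genes picked by their p are thus no result of their own.

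**Figure D4:**
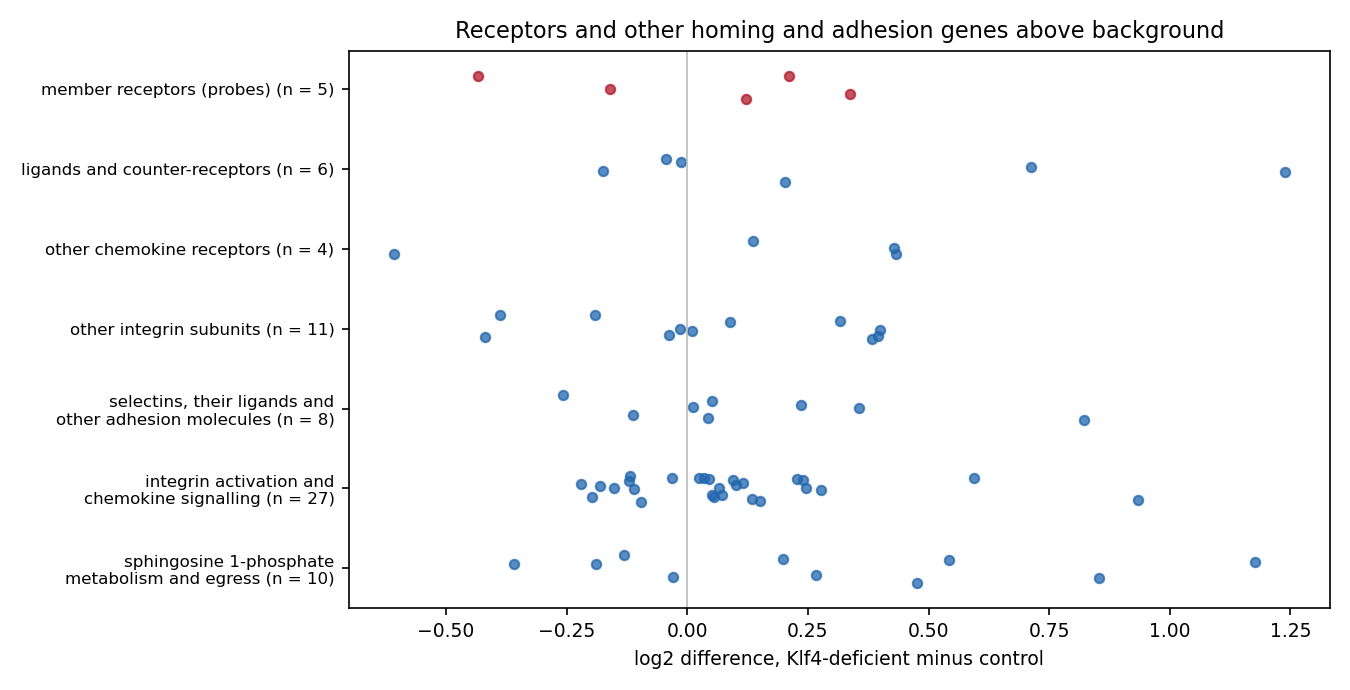
Log2 difference, Klf4-deficient minus control, of the 5 receptor probes above background (top row, red) and of the genes of each list that were above background on all 3 arrays of at least 1 group (blue), 1 point per probe or gene. A gene may pass this filter through the group where it is high. No point passed the adjusted threshold in limma.

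Among ligands and counter-receptors, 0 of 15 measured genes had an unadjusted p under 0.05. Icam1, the ligand of LFA-1, averaged 311 ± 27.8 in Klf4-deficient and 290 ± 38 in control arrays (SD, n = 3 each), with a normalized log2 difference of 0.20 ± 0.08 (SE). Vcam1, the ligand of VLA-4 and also a macrophage marker, had 363, 606 and 648 in Klf4-deficient arrays 1, 2 and 3, against 275, 397 and 352 in control arrays 1, 2 and 3, a difference of 0.71 ± 0.33. Cxcl9 had 45.5, 185 and 56.4 in the Klf4-deficient arrays, against 11.8, 26.4 and 46.9 in the controls, a difference of 1.24 ± 0.56. Klf4-deficient array 2 was the highest, and without it the difference was 0.74. Cxcl12, made by marrow stroma, averaged 55.6 ± 12.2 in Klf4-deficient and 68.1 ± 15.2 in control arrays and differed by -0.18 ± 0.20. That difference was -0.01 without control array 2, -0.29 without control array 3, and -0.07 or -0.28 with array 1 or 2 of the Klf4-deficient group left out. The adjusted p of Icam1, Vcam1 and Cxcl9 was 0.824 in limma.

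Of 17 other chemokine receptors, 0 had an unadjusted p under 0.05 with a positive difference and 2 with a negative one, Cxcr5 and Ackr2. Cxcr5, which guides lymphocytes to B cell follicles, had signals of 21.7, 27.5 and 25.7 in Klf4-deficient arrays 1, 2 and 3, against 57.7, 38 and 53.5 in control arrays 1, 2 and 3. The groups did not overlap and the log2 difference was -0.61 ± 0.14 (SE, adjusted p = 0.597 from limma). This level is close to background. Ackr2 was above background on no array. Cx3cr1, a receptor of monocytes and NK cells, averaged 37 ± 6.3 in Klf4-deficient and 25 ± 6.7 in control arrays, a difference of 0.43 ± 0.18. Its highest signal, 43.8, was in Klf4-deficient array 1, where the monocyte list had its lowest median of that group, and the part of monocytes in it was not tested. Ccrl2 averaged 32 ± 12 in Klf4-deficient and 23.1 ± 6.2 in control arrays, a difference of 0.34 ± 0.25. With array 2 of the Klf4-deficient group left out Ccrl2 differed by 0.21, with array 1 left out by 0.55, and without control array 2 by 0.23.

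Of 23 other integrin subunits, 1 had an unadjusted p under 0.05 with a positive difference and 0 with a negative one. That subunit, Itgb6, was above background on no array. Itga5, the alpha chain of the fibronectin receptor, averaged 92.8 ± 20.2 in Klf4-deficient and 71.2 ± 11.4 in control arrays (SD, n = 3 each) and differed by 0.38 ± 0.21 (SE). Itga2b, the platelet integrin chain, differed by 0.40 ± 0.24 and Itgae, which binds E-cadherin, by 0.32 ± 0.19. All 3 had an adjusted p of 0.824 in limma. The Itga5 difference was 0.23 without Klf4-deficient array 3 and 0.25 without control array 1. With array 2 of the Klf4-deficient group left out that of Itga2b was 0.21, with array 1 left out it was 0.60, and that of Itgae was 0.15 without Klf4-deficient array 3.

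Of 19 selectins, selectin ligands and other adhesion molecules, 1 had an unadjusted p under 0.05, with a negative difference. Pecam1, an adhesion molecule of endothelium and leukocytes, had signals of 696, 806 and 576 in Klf4-deficient arrays 1, 2 and 3, against 923, 773 and 987 in control arrays 1, 2 and 3. The deposited signals overlapped, the normalized values did not, and the log2 difference was -0.26 ± 0.09 (SE, adjusted p = 0.765 from limma). Gcnt1, a glycosyltransferase that builds selectin ligands, differed by 0.82 ± 0.39, with the highest signal, 191, in Klf4-deficient array 3, and by 0.47 without that array. St3gal4, a sialyltransferase of the same pathway, differed by 0.24 ± 0.14, and by 0.12 without Klf4-deficient array 2.

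Of 32 genes of integrin activation and chemokine signalling, 2 had an unadjusted p under 0.05 with a positive and 2 with a negative difference. Rgs1, which shortens chemokine receptor signals through G proteins, had signals of 80.8, 77.5 and 39.7 in Klf4-deficient arrays 1, 2 and 3, against 20.4, 25 and 37.8 in control arrays 1, 2 and 3. Every Klf4-deficient array was above every control, by a small margin for array 3. The log2 difference was 0.93 ± 0.27 (SE, adjusted p = 0.687 from limma). Elmo1, which with Dock2 activates Rac in migrating lymphocytes, differed by -0.15 ± 0.05 (adjusted p = 0.773), and Pik3cg, the phosphoinositide kinase downstream of chemokine receptors, by -0.11 ± 0.03 (adjusted p = 0.686).

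Of 14 genes of sphingosine 1-phosphate metabolism and egress, 2 had an unadjusted p under 0.05, both with a positive difference. Over all 19057 genes, 3.46% passed with a positive difference and 5.45% were higher without overlap. Cd69 and S1pr2 are described because their p was the smallest. Cd69, whose protein binds S1pr1 and draws it from the surface, had signals of 1165, 1242 and 851 in Klf4-deficient arrays 1, 2 and 3, against 556, 716 and 635 in control arrays 1, 2 and 3. The groups did not overlap and the log2 difference was 0.85 ± 0.15 (SE, adjusted p = 0.510 from limma). S1pr2, a receptor of the same lipid that restrains migration, had 554, 564 and 539 in the Klf4-deficient arrays and 436, 443 and 391 in the controls. Its groups did not overlap, with a difference of 0.48 ± 0.10 (adjusted p = 0.552).

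Sgpl1, the lyase that degrades sphingosine 1-phosphate, differed by 0.27 ± 0.12 (SE, adjusted p = 0.824 from limma), and by 0.15 without Klf4-deficient array 3. Klf2, the factor known to drive S1pr1 in T cells, had signals of 1306, 518 and 480 in Klf4-deficient arrays 1, 2 and 3, against 568, 427 and 516 in control arrays 1, 2 and 3. Klf4-deficient array 1 alone lay apart, and without it the log2 difference was 0.13, against 0.54 ± 0.39 with all arrays (adjusted p = 0.824). The S1pr1 probe itself was under background on every array, so its level could not be set beside these.

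The genes whose pattern over the 6 arrays was most like each receptor were looked up among 1 probe per gene above background on all arrays, on the normalized log2 scale. They were Rnf181 and CYTB for Cxcr4 (Pearson r = 0.999 and 0.984), Stambpl1 and Bloc1s3 for Itga4 (r = 0.991 and 0.986), Nus1 and Ahsa2 for Itgal (r = 0.992 and 0.987), and Pou2f2 and Myof for Cd44 (r = 0.998 and 0.995). All come from a search over 8359 genes with 6 arrays. Genes with r above 0.9 numbered 76 for Cxcr4, 91 for Itga4 and 51 for Itgal. For Cd44 they numbered 313. Receptors whose brightest probe was under background were not searched in this way. Among the receptors, Cxcr4 and Itga4 had r = 0.66 and rho = 0.60 over the 6 arrays, and Itgal had r between -0.24 and 0.14 with the other 4 probes.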

How the data were processed

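Per the submitters' processing notes, the authors made the deposited intensity of each probe, on a linear scale, in BeadStudio. How background was subtracted, whether arrays were normalized, and the build were not given in the sources used here. Between 31.3% and 34.2% of the values of an array lie below 0. Members and gene lists were chosen with earlier results of these data known.

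Values under 0 were set to 0, 16 was added, log2 values were quantile normalized, and limma 3.58.1 in R 4.3.3 (lmFit, eBayes with a variance trend) was fitted on all 45281 probes, with Benjamini-Hochberg adjustment and a threshold of 0.05. Of these, 6841 probes were at or below 0 on all arrays. The fit was run on simulated data with independent noise and added differences larger than those of the members. That run says nothing on smaller differences or on values at the floor. Of the probes, 34885 carried 1 gene symbol, 18 several and 10378 were unnamed here, and symbols were updated through the gene ID. The background limit mirrored the negative values of each array around 0. The number of arrays limits the precision, and an exact permutation test of 3 against 3 cannot go below p = 0.10. Errors are SDs over 3 arrays or standard errors of the fit.

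All member probes were named, and of each list the 3 genes with the smallest unadjusted p among those above background on at least 3 arrays. Upstream sequences came from RefSeq on GRCm38.p6, where Cxcr4, Ccr9, Ccr4, Cxcr3, Itga4 and Cd44 matched by symbol. Alternatives were other normalizations, offsets, filters, variance models, array weights, a block for the replicate number, and leaving out each array. A limit of 2 SD was added after the data were seen.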

Additional observations from a re-analysis of the deposited data

How the results depend on the processing

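In each of the 18 alternatives 0 member probes and 0 listed genes were called at the adjusted threshold in limma. The lowest adjusted p of a member probe was 0.413 (Itga4), with probes above background alone. The count of calls over all probes, 2, was 0 with arrays centred on their median, 1 with cyclic loess and 1 with probes above background alone. It was 49, 35 and 32 without Klf4-deficient replicate 1, 2 or 3, and 22, 29 and 45 without control replicate 1, 2 or 3. The cause was not tested. The differences of Cxcr4, Itga4 and Itgal kept their sign throughout, from -0.27 to -0.08, from -0.51 to -0.32 and from 0.002 to 0.20. The Cd44 probes turned to -0.084 and -0.035 without Klf4-deficient replicate 3, and reached 0.45 and 0.59 without Klf4-deficient replicate 1. Itgb1 turned to 0.035 with cyclic loess and ran from -0.21 to 0.12 with 1 array left out. Itgb7 turned to -0.010 with no normalization and ran from -0.039 to 0.23 with 1 array left out. The cause was not tested. With a background limit of 2 SD, 6 probes of the same 4 genes were above background on all arrays of a group.

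With the replicate number as a replicate block, 0 probes and 0 members were called, and the Itga4 difference of -0.43 had an adjusted p of 0.797. Same-numbered arrays deviated from their group means with correlations of 0.16, -0.03 and -0.18 across probes. Over pairs with different numbers these correlations ran from -0.25 to 0.22. Deviations within a group of 3 depend on each other, so such values cannot decide whether same-numbered arrays share more than a number.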
